A study of Ovis aries with 16 samples.

Results

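A set of 200 gene IDs was markedly more abundant in 4 of the 16 amnion libraries than in the remaining 12. The 4 libraries came from 1 control animal (C 1), 1 animal with drained urine (UD 2) and 2 animals with drained urine and replaced fluid (UDR 2 and UDR 3). The members were picked from the 25197 IDs of the count table by those values. Counts were divided by the library total and multiplied by 1000000 (CPM), and then put on the log2(CPM + 1) scale. For each ID with a mean under 1000 CPM in the controls, the lowest of its 4 values in these libraries was compared with its mean over the other 12. The 200 IDs with the largest difference were taken, with the first 37 IDs of the table left out. The height of the members in these 4 libraries is therefore the criterion by which they were chosen, and it is given below as a description without a test.

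The amnion is the thin, avascular inner membrane of the fetal sac, made of an epithelium that faces the amniotic fluid and of connective tissue beneath it. In sheep, fetal urine is a main source of amniotic fluid, and fluid leaves the sac partly by intramembranous transport, which carries it across the amnion into fetal vessels. The study altered the balance of these flows and asked how transcripts of vesicular transport respond. In bulk tissue, a transcript level reflects both how many cells of each type were sampled and how much RNA each cell held, and the 2 cannot be told apart here. The IDs are Ensembl sheep IDs that the table does not pair with names, and 0 of the 25197 occur in the reference gene table used here. Members are therefore given by ID, no role is stated for any of them, and the labelled tissue could not be checked against marker genes.

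All 16 animals were late-gestation ewes with singleton fetuses, fitted at 121 ± 0.5 days (SE; term is 145 to 150 days) with maternal and fetal vascular catheters and with catheters in the amniotic sac and fetal bladder. A protocol of 2 days followed, with 4 animals in each group and 1 library from each. Besides the controls (C), UD animals lost fetal urine with nothing given back, and UDR animals lost it while lactated Ringer's solution, a balanced salt solution, was returned in equal volume. IA animals were infused with lactated Ringer's solution at 2 liters per day, directly into the sac. The labels name no strain, fetal sex or genotype. Libraries held 12245460 to 30767263 counts, and most in UDR 2 and UDR 3, whose 2 sequencing runs were summed. IA 2 stood apart from the rest over many genes, as will be seen within the set.

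The set took a larger share of counts in the 4 libraries than anywhere else. Its share was 0.852% of counts in C 1 (95% exact binomial interval 0.847 to 0.857), 1.03% in UD 2, 1.17% in UDR 2 and 1.45% in UDR 3. Across the other 12 libraries it lay between 0.168% in UD 1 and 0.291% in UDR 1, with a median of 0.219%. Intervals of this kind cover counting error only. The median member stood at 16.3 CPM in C 1 and at 20.6 to 22.2 CPM in the other 3. In the other 12 libraries the median member stood at 1.40 to 2.80 CPM. No library lay in between, so at the level of the whole set the libraries fell into a high and a low class, as the choice of members favoured. Over all 14148 genes tested, by contrast, the median log2(CPM + 1) was 4.14 to 4.41 in the 4 libraries and 3.99 to 4.37 in the other 12.

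**Figure D1:**
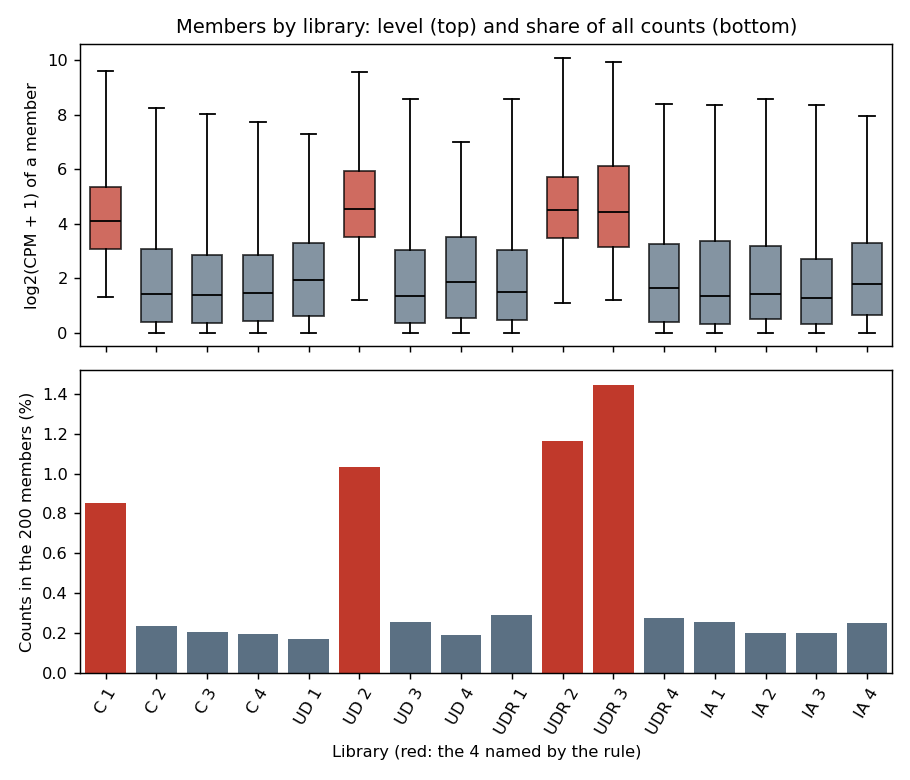
Level and share of the 200 members in each library, in red for the 4 libraries by which members were chosen. Top: boxes give the quartiles and the median of log2(CPM + 1) over the 200 members, whiskers the lowest and highest member; bottom: percent of all counts, from 0.168% in UD 1 to 1.45% in UDR 3. The high libraries belong to C, UD and UDR, and none to IA.

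Every member had counts in each of the 4 libraries, 19 at the fewest, and exceeded 1 CPM there. The choice required that level, since the smallest difference in the set was 1.02 on the log2(CPM + 1) scale. In the other 12 libraries 178 to 191 members had a count and 109 to 133 exceeded 1 CPM. In 54 members at least 1 of the 12 libraries was at 0, and 11 members were at 0 in 6 or more of them. A count of 0 in these libraries allows a level of up to 0.162 to 0.245 CPM, at 3 counts of the library total. In 154 members the lowest of the 4 libraries lay above the highest of the other 12. Among all 20646 IDs with a count, 421 showed this order, or 2.04%. The members were chosen by this contrast, so the number says only how clean the separation is within the set. The opposite order, with all 4 libraries below all 12, was found for 104 IDs.

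**Figure D2:**
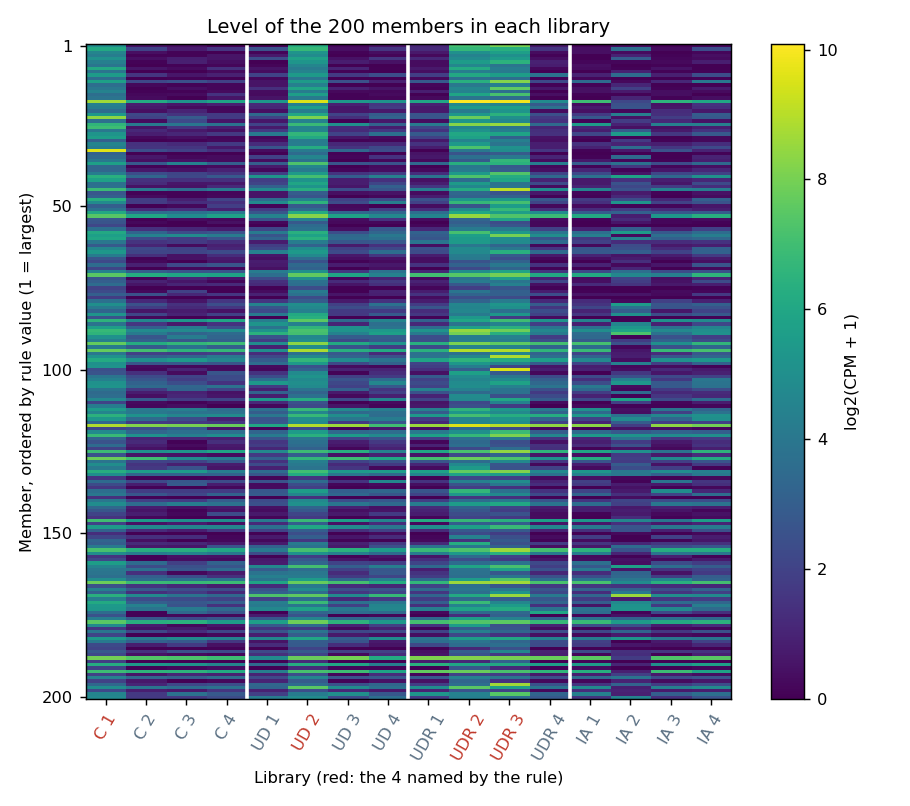
Log2(CPM + 1) of each member (rows, ordered from the largest to the smallest value of the criterion) in each library (columns, by treatment group, with the 4 libraries of the criterion labelled in red). The 4 columns are lighter over nearly all rows, and single bright rows in C 1 or UDR 3 are members led by that library alone.

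Members ranged from IDs close to silent outside the 4 libraries to IDs expressed everywhere. The mean over the other 12 libraries was under 0.1 CPM in 11 members, 0.1 to 1 CPM in 52, 1 to 10 CPM in 91, 10 to 100 CPM in 43 and over 100 CPM in 3. The ratio of the mean CPM in the 4 libraries to that in the other 12 had a median of 158 in the first of these classes, where the 12 libraries together held as few as 3 counts. It had a median of 27.6 in the second class, 6.27 in the third, 3.85 in the fourth and 2.25 in the last. This gradient is set by the criterion: with 1 added to the CPM, an ID close to 0 in the 12 libraries needs a much larger ratio to reach the same difference than an abundant one. In 116 members all 4 libraries exceeded 10 CPM.

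**Figure D3:**
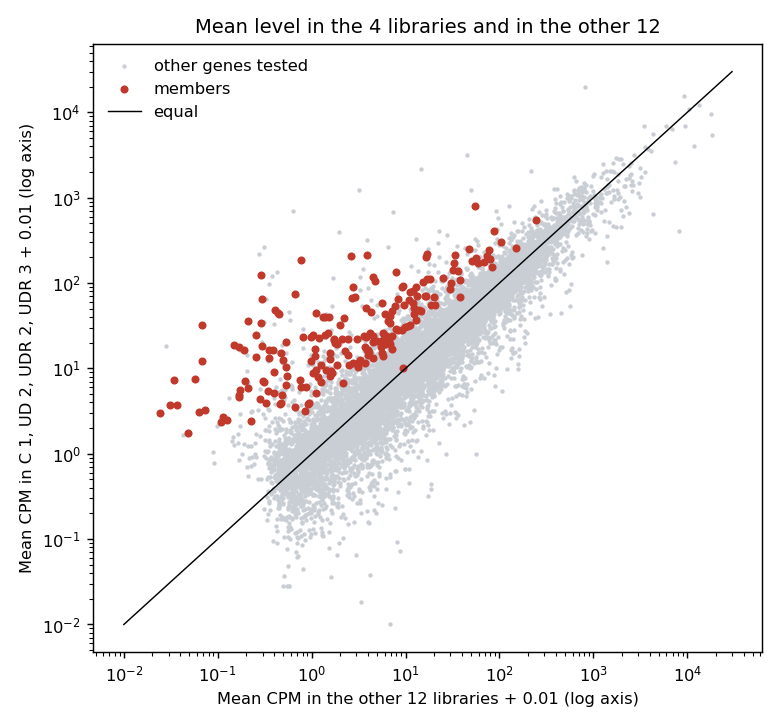
Mean CPM of each gene in the 4 libraries against its mean in the other 12, both on log axes with 0.01 added, for members (red) and the other genes tested (grey), with the line of equality. Members span low to high levels in the 12 libraries, and the red points leave the line of equality further at low levels than at high ones.

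The largest difference belonged to ENSOARG00000003992, at 29.0 CPM in C 1, 75.4 in UD 2, and 134 and 258 in UDR 2 and 3. Its values in the other 12 libraries ran from 0 to 1.06 CPM, with a median of 0.187. Even the lowest of the 4, in C 1, was far above the highest of the 12, in UDR 1. ENSOARG00000009675 followed, at 66.6 CPM in C 1, 106 in UD 2, and 104 and 81.3 in UDR 2 and 3, a narrow range. It was not absent elsewhere: the other 12 libraries ran from 0.243 to 11.9 CPM, the highest being IA 2, with a median of 1.98. ENSOARG00000003338 stood at 22.8, 35.9, 32.3 and 51.0 CPM in C 1, UD 2, UDR 2 and UDR 3, against at most 0.626 CPM in the other 12. Members so close to silence elsewhere as the first and the third are the minority of the set, since 137 members averaged over 1 CPM in the 12.

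The next 3 members by the criterion differed among themselves in what the low libraries held. ENSOARG00000009680 stood at 18.2 CPM in C 1, 28.0 in UD 2, and 21.5 and 31.5 in UDR 2 and 3, and at most 0.954 CPM, in IA 2, outside them. ENSOARG00000006454 stood at 33.6, 53.7, 28.0 and 45.4 CPM in the same order, and the highest of the other 12 was again IA 2, at 6.50 CPM, followed by UD 1 at 4.04. ENSOARG00000010420 stood at 19.6, 37.1, 45.4 and 89.2 CPM, with a highest value of 0.898 CPM, in UDR 4, among the 12. For ENSOARG00000009680 and ENSOARG00000006454, IA 2 and UD 1 were thus the highest of the 12, with 0.593 CPM in UD 1 for the former, whereas UD 1 held no count of ENSOARG00000010420.

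By the ratio of the mean in the 4 libraries to the highest single value among the 12, ENSOARG00000005291 led the set, at 132. Its 4 values were uneven, with 4.99 CPM in C 1, 81.3 in UD 2, and 40.7 and 2.50 in UDR 2 and 3. The 12 libraries held 10 counts of it in all, and 6 of them held none. ENSOARG00000009717 was the opposite in evenness, at 11.2 CPM in C 1, 14.5 in UD 2, and 12.2 and 11.4 in UDR 2 and 3, with 11 counts over the 12 libraries and 6 libraries at 0. ENSOARG00000010334, with a ratio of 114, owed it to UDR 3 alone: it stood at 4.32 CPM in C 1, 7.43 in UD 2 and 6.92 in UDR 2, and at 724 in UDR 3. At the other end stood ENSOARG00000016664, whose 4 values were almost equal, from 9.17 to 10.9 CPM. UDR 4 held it at 60.9 CPM, while UD 1 held none, so its ratio was 0.164. ENSOARG00000010890 had a ratio of 0.464 because IA 2 held it at 383 CPM, above UDR 3 with 368.

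The 4 members of highest mean CPM over all 16 libraries had counts in every library. They differed in size of change: the mean in the 4 libraries was 14.7 times that in the other 12 for ENSOARG00000003788. The ratio was 4.55 for ENSOARG00000000900, 2.25 for ENSOARG00000011311 and 1.68 for ENSOARG00000002821. ENSOARG00000003788 had the highest mean in the 4 libraries, at 400 CPM in C 1, 761 in UD 2, and 1086 and 969 in UDR 2 and 3. The other 12 ran from 3.46 CPM in IA 2 to 124 CPM in IA 1, with a median of 50.4, and so did not reach the lowest of the 4. ENSOARG00000011311 stood at 465.5 CPM in C 1, 483 in UD 2, and 757 and 511 in UDR 2 and 3, only a little above the highest of the other 12, 384 CPM in UD 3. ENSOARG00000000900 stood at 207, 448, 480 and 478 CPM in the same order, against at most 142 CPM in the 12. ENSOARG00000002821 was at 241, 220, 299 and 256 CPM, and UDR 1, at 283 CPM, lay within that range. All 4 of these abundant members had their lowest value in IA 2, from 0.536 to 3.46 CPM.

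The criterion ran from 4.59 for the first member to 1.02 for the last, with a median of 1.65, and 20 members exceeded 3. There was no step at its end. The last member inside was ENSOARG00000014789 and the one before it ENSOARG00000016415, with differences of 1.02 and 1.03, and the first 2 IDs outside were ENSOARG00000015903 and ENSOARG00000024133, both also at 1.02 after rounding. A further 41 IDs lay between the threshold and 0.9, counting these 2, and 600 IDs in all exceeded 0.5. The set is thus the upper end of a continuous list, and its size of 200 is a choice. Outside the set 267 IDs also had all 4 libraries above all 12.

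The limit of 1000 CPM in the controls removed 1 ID with a large difference. ENSOARG00000002590 had a value of 3.38 by the criterion, which would have placed it among the first 20. It stood at 5670 CPM in C 1, 32242 in UD 2, and 8606 and 32889 in UDR 2 and 3, and the other 12 libraries ran from 138 to 1905 CPM, with a median of 622. Its control mean of 1671 CPM, which excluded it, came from C 1, since C 2, C 3 and C 4 held 670, 201 and 144 CPM. In UD 2 and UDR 3 this single ID thus took more counts than the 200 members together. The next such ID, ENSOARG00000000674, reached only 0.85, and its 4 libraries overlapped the other 12. The other 3 abundant IDs closest to the pattern, ENSOARG00000016773, ENSOARG00000018666 and ENSOARG00000016495, reached 0.65, 0.47 and 0.47, with overlap in each.

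The 4 libraries were not alike within the set. UDR 3 was the highest of the 4 in 73 members, UD 2 in 55, UDR 2 in 51 and C 1 in 21, while C 1 was the lowest in 87. These orders were not counted over all genes tested, so they are not shown to be particular to the set. UD 2 and UDR 2 were the closest pair: 171 of 200 members (85.5%) lay within 1 of each other on the log2(CPM + 1) scale, against 88.1% of all genes tested. Only 121 members (60.5%) did so for UDR 2 and UDR 3, the 2 libraries of the same treatment, against 70.4% of all genes tested. C 1 and UDR 3 were that close in 129 members (64.5%), against 68.5% of all genes tested. Among all genes tested, too, UDR 2 lay closer to UD 2 than to UDR 3. Across members, Pearson's r of the levels was 0.92 for UD 2 and UDR 2, 0.71 for UDR 2 and UDR 3 and 0.84 for C 1 and UD 2, where all genes tested gave 0.96, 0.86 and 0.95. These r values are across genes, which are not independent replicates.

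Some members were carried mainly by 1 of the 4 libraries. UDR 3 exceeded the other 3 by at least 1 on the log2 scale in 25 members (12.5%; 7.79% of all genes tested), UDR 2 in 7 (3.5%; 0.841%), C 1 in 4 (2%; 3.18%) and UD 2 in 0 (0%; 0.615%). By at least 2, a margin not counted over all genes tested, UDR 3 did so in 8 members. Besides ENSOARG00000010334 these included ENSOARG00000011272, at 395 CPM in UDR 3 against 9.53 to 11.9 CPM in the other 3, and ENSOARG00000020194, at 456 CPM against 23.8 to 34.2 CPM. C 1 led ENSOARG00000000165 in the same way, at 768 CPM against 15.4 to 29.8 CPM, and ENSOARG00000008942, at 118 CPM against 12.9 to 22.8 CPM. UDR 2 led 1 member by that margin, ENSOARG00000020243, at 75.3 CPM against 4.64 to 17.5 CPM. These members, other than ENSOARG00000010334, were singled out after their values were seen. In each of them the lower 3 libraries still lay above the mean of the 12, as the criterion requires.

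Each of the 4 libraries was also left out of the choice in turn. The 200 IDs highest in the remaining 3 were then read in the library left out. Values of the library left out took no part in that choice, but the 12 libraries against which they are read did, and IDs low in the 12 were favoured. That the library belongs with the others was also known from the same data, so no test is given. The IDs chosen without UD 2 lay above the highest of the 12 low libraries in UD 2 for 165 of 200, or 82.5%, where 16.4% of all genes tested did. Without UDR 2 the count was 157, or 78.5% against 13.4%, and without C 1 it was 143, or 71.5% against 17.9%. The median difference from the mean of the 12 was 2.37 in UD 2, 2.23 in UDR 2 and 1.81 in C 1 on the log2(CPM + 1) scale, against 0.07, -0.08 and 0.12 over all genes tested.

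UDR 3 behaved differently. Of the 200 IDs chosen from C 1, UD 2 and UDR 2 alone, 99 (49.5%) lay above the highest of the 12 in UDR 3, where 17.3% of all genes tested did. The IDs fell apart there: 106 stood at least 1 above the mean of the 12, 24 stood above it by less, and 70 were at or below it. Those 70 IDs had a median of 47.1 CPM in the other 3 libraries and of 9.53 CPM in the 12, but of 5.50 CPM in UDR 3. ENSOARG00000009423 had the largest 3-library difference of them, at 86.0 CPM in C 1, 141 in UD 2 and 116 in UDR 2, and at 2.03 CPM in UDR 3, within the 0.417 to 12.1 CPM of the other 12. ENSOARG00000021190 came next, at 544, 311 and 304 CPM, and at 8.46 CPM in UDR 3. Both were named after their values were seen. Of the IDs that C 1, UD 2 and UDR 2 shared, UDR 3 thus held one portion high and another at the level of the 12.

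**Figure D4:**
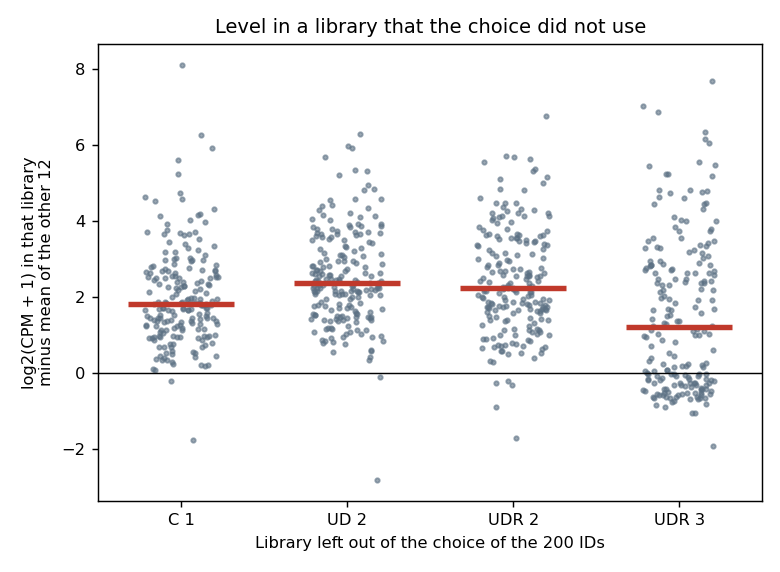
Level of 200 IDs in a library that took no part in choosing them, as log2(CPM + 1) minus the mean of the other 12 libraries; each point is an ID, red lines are medians and the black line marks no difference. In C 1, UD 2 and UDR 2 nearly all points lie above 0, whereas in UDR 3 70 of 200 lie at or below it.

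Animals of 1 treatment fell into both classes. Each of C, UD and UDR held high and low libraries, and all 4 IA libraries were low. The mean of log2(CPM + 1) over the members was 4.30 in C 1 and 1.91 to 1.99 in C 2, C 3 and C 4. In UD it was 4.65 in UD 2 and 1.95 to 2.20 in the other 3. In UDR it was 4.68 and 4.73 in UDR 2 and UDR 3 and 2.08 and 2.14 in UDR 1 and UDR 4. In IA it ran from 1.83 to 2.20. The SD over the 4 libraries was 0.15 in IA. That of C, 1.18, of UD, 1.28, and of UDR, 1.50, came from the libraries that chose the members. Without those the SD was 0.04 in C (n = 3), 0.13 in UD (n = 3) and 0.04 in UDR (n = 2).

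The treatment groups were compared with edgeR's quasi-likelihood test on the counts, fitted over 14148 genes in all 16 libraries, with p-values adjusted over all of them by the Benjamini-Hochberg method. In each of the 6 comparisons 0 of 200 members passed an adjusted p of 0.05, and so did 0% of all genes tested. DESeq2 called 1 member for IA against C, 1 for IA against UD and 7 for IA against UDR, where it called 0.0357%, 0.0214% and 0.378% of all genes with an adjusted p. Limma-voom weighted by library quality called 20 for UD against C (10% of members, 23.8% of all genes), 13 for UDR against UD (6.5% and 11.6%) and 4 for IA against UD (2% and 10.2%). The 6 share groups and are not independent. All 200 members passed the filter on low counts, which they could do through the libraries in which they were high. The median log2 fold change over the members was 1.34 for UDR against C, 0.52 for UD against C and -0.80 for IA against C. It was 0.89 for UDR against UD, -1.31 for IA against UD and -2.30 for IA against UDR. Over all genes tested the medians were between -0.03 and 0.04. Single libraries carried some of the directions: UD against C turned to -0.84 without UD 2, IA against C to 0.51 without C 1 and IA against UD to 0.04 without UD 2. UD and UDR against C rose to 2.21 and 3.11 without C 1. UDR against C, UDR against UD and IA against UDR kept their sign whichever library of the groups compared was left out. The median SE of a member's log2 fold change was 1.18 to 1.21, against 0.41 over all genes tested. UDR held 2 of the 4 libraries, UD and C 1 each and IA 0, so the choice of members fixed these medians in part.

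At an unadjusted p under 0.05, 78 members (39%) were lower in IA than in UDR and 0 higher, against 3.85% and 5.22% of all genes tested. In UDR 17 (8.5%) were higher than in C and 0 lower, against 4.23% and 1.87%. In IA 14 (7%) were lower than in C and 0 higher, against 0.679% and 3.72%. Against UD, IA was lower in 15 (7.5%) and higher in 0, against 0.622% and 0.198%. UDR exceeded UD in 5 (2.5%), near the 2.60% of all genes tested, and was below it in 0, against 6.28%. The 5 were ENSOARG00000016186, ENSOARG00000003828, ENSOARG00000020194, ENSOARG00000010334 and ENSOARG00000011272. UD was higher than C in 0 and lower in 1 (0.5%), against 4.66% and 0.799%. That member was ENSOARG00000000165, which C 1 held at 768 CPM. No reading is drawn from these counts, since the libraries that chose the members also enter them. The 2 members at 0 in all 4 IA libraries left the medians unchanged when they were set to the bound that 3 counts over the group allow.

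Without the 4 libraries, the remaining 12 allow a comparison of treatments on values of which the choice used only the overall mean. C then held 3 libraries, UD 3, UDR 2 and IA 4. Of the 200 members 167 still passed the filter on low counts, among 14449 genes, and 33 did not. The edgeR test again called 0 of them in every comparison at an adjusted p of 0.05, with 0% of all genes called. Medians over the 167 were 0.50 for UD against C, 0.42 for UDR against C and 0.49 for IA against C. Over all genes tested the medians were -0.031, -0.00049 and 0.0033 in the same order. All 3 comparisons rest on the same control libraries, C 2, C 3 and C 4. By the mean of log2(CPM + 1) over all 200 members the shifts were smaller. These controls averaged 1.94, against 2.00 for IA, 2.09 for UD and 2.11 for UDR without the 4 libraries. IA 3, at 1.83, lay below every one of these controls. In IA 2, 60 members lay at least 1 above the median of the other low libraries and 43 at least 1 below it. Whether single libraries carried the medians of this fit was not tested. By the column names, these controls were sequenced on lane 1, as was UD 1. UD 3, UD 4, UDR 1 and UDR 4 came from lane 2, and every IA library came from lane 3. UDR against C, IA against C, IA against UD and IA against UDR were thus also comparisons between lanes, and the part of lane was not tested. The median was -0.22 for UDR against UD, 0.04 for IA against UD and 0.27 for IA against UDR, where all genes tested had 0.07. With all 16 libraries the same 167 members had medians of -0.62 for IA against C, -1.09 for IA against UD and -1.94 for IA against UDR. Their lower level in IA was thus not seen without the 4 libraries, and for IA against UD the median lay at that of all genes tested, 0.020.

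At an unadjusted p under 0.05 in these 12 libraries, 23 of the 167 members (13.8%) were higher in UD than in C, against 7.77% of all genes tested. For IA 20 (12%) were higher than in C, against 5.18%, and for UDR 10 (5.99%), against 1.66%. Lower than in C were 2 members (1.20%) in each comparison, against 1.46% of genes in UD, 0.990% in IA and 1.72% in UDR. ENSOARG00000013288 was among the 2 in every case, with ENSOARG00000001682 in UD, ENSOARG00000018618 in UDR and ENSOARG00000000890 in IA. These IDs were named after their values were seen. In UDR 5 members (2.99%) were higher and 5 (2.99%) lower than in UD, against 0.969% and 4.20%. Of the 167 members, 1 (0.599%), ENSOARG00000001682, was higher in IA than in UD, against 0.491%. In IA 3 members (1.80%) were higher and 7 (4.19%) lower than in UDR, against 1.40% and 0.844%. With no call after adjustment, these shares stand as descriptions.

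**Figure D5:**
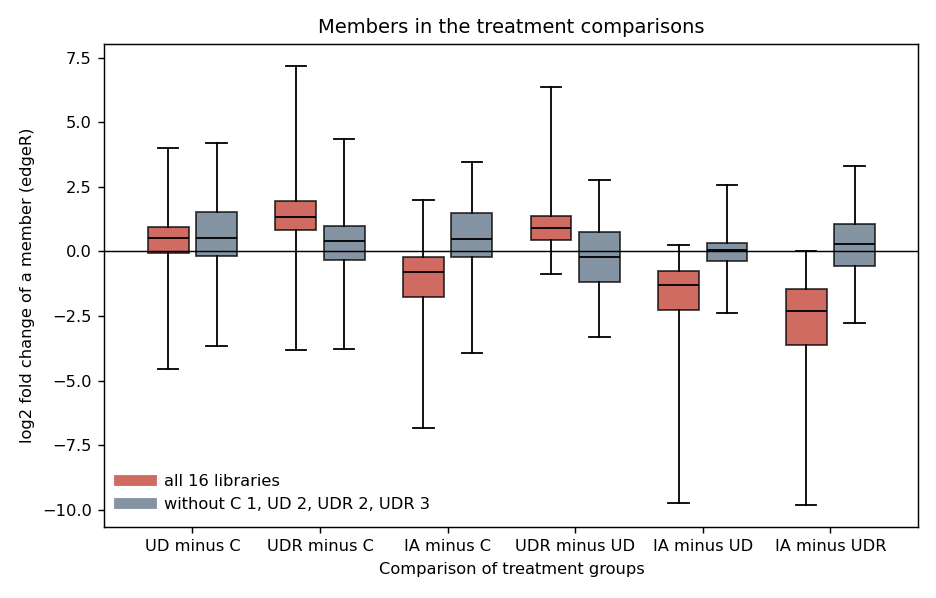
Log2 fold changes of the members by edgeR in the 6 treatment comparisons, with all 16 libraries (red, 200 members) and without the 4 libraries by which members were chosen (grey, 167 members). Boxes give quartiles and medians, whiskers the lowest and highest member. The medians of -0.80, -1.31 and -2.30 for IA lie above 0 in grey.

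Pairwise correlations between members were low within the 12 libraries. The mean pairwise correlation of log2(CPM + 1) between members was 0.68 over all 16 libraries, which the choice fixed, and 0.03 over the 12, where all genes tested gave 0.04. Without IA 2 the 2 values were 0.04 and 0.05. These are descriptions over 12 and 11 libraries, and many members had few counts there, which lowers a correlation, and a mean over pairs also averages members that move in opposite directions. The median SD of a member over the 12 libraries was 0.66, against 0.46 over all genes tested.

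IA 2 split the set in both directions. In that library 29 members (14.5%) lay at least 2 below the median of the other 11 low libraries on the log2(CPM + 1) scale, and 22 (11%) at least 2 above it. Over all genes tested the shares were 6.53% and 6.98%. The 29 lower members had a median of 0.775 CPM in IA 2, and the 22 higher ones a median of 33.1 CPM. The size was large in both directions: ENSOARG00000000900 stood at 0.536 CPM in IA 2 against 95.3 CPM at the median of the 12, and ENSOARG00000010890 at 383 CPM against 26.9 CPM.

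UD 1 leaned the same way as IA 2 for most of these members. Of the 22 higher members 20 were also at least 1 above the median of the other low libraries in UD 1, and 12 in UD 4. Of the 29 lower ones 20 were at least 1 below it in UD 1 and 7 in UD 4. Of all genes tested that were so much higher in IA 2, 91.7% were also higher in UD 1, against 90.9% of the 22 members, and 78.2% in UD 4, against 54.5%. Of those so much lower, 69.9% were also lower in UD 1, against 69.0% of the 29 members, and 17.4% in UD 4, against 24.1%. Over the 200 members, deviations from the other low libraries correlated at 0.81 between IA 2 and UD 1 and at 0.60 between IA 2 and UD 4, and over all genes tested at 0.72 and 0.58. All genes tested thus leaned the same way as the members in UD 1. Among the 46 members in which the 12 libraries reached into the range of the 4, IA 2 was the highest of the 12 in 19, UDR 1 in 10 and UD 1 in 5. Without IA 2, 167 members in place of 154 had all 4 libraries above the others. The same form of criterion applied to UD 1, UD 4 and IA 2 picked 200 IDs of which 0 were members. A high level in those libraries raises the mean that the members had to exceed, so the criterion itself works against such an overlap.

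High and low libraries were sequenced in the same lanes, as the column names give them. Lane 1 held C 1 and UD 2 with shares of 0.852% and 1.03% beside C 2, C 3, C 4 and UD 1 at 0.168% to 0.233%. Lane 2 held UDR 2 and UDR 3 beside UD 3, UD 4, UDR 1 and UDR 4 at 0.187% to 0.291%. The 2 runs of UDR 2 gave 1.17% in lanes 2 and 3, and those of UDR 3 gave 1.45% in both, while the IA libraries of lane 3 lay at 0.198% to 0.256%. No member differed by 1 or more on the log2(CPM + 1) scale between the runs of a library, and the largest difference was 0.59. UDR 2 and UDR 3 had the highest totals. C 1 and UD 2, with 13437316 and 14943043 counts, lay within the range of the 12, which was 12245460 to 18553674. C shared no lane with UDR or IA, and UD shared none with IA, so treatment and lane cannot be told apart in those comparisons. Without the 4 libraries the same held for IA against UDR. The part of lane and of library total in the levels was not tested.

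Other library measures overlapped between the classes. The 4 libraries held 16694 to 17498 IDs with a count and the other 12 held 16272 to 17135. Their 10 most abundant IDs took 9.31% to 15% of counts, against 7.28% to 22.7%. The first 37 IDs, left out of the choice, took 2.13% of C 1 counts, 1.32% of those of UD 2, 1.20% in UDR 3 and 0.416% in UDR 2. In the other 12 they took 0.304% to 1.03%, so 3 of the 4 libraries lay above all of these and UDR 2 below their median of 0.590%. The part of these IDs in the result was not tested, and neither was that of tissue sampling, since no marker gene could be looked up.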

How the data were processed

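RNA-seq of amnion was analysed from the table of raw counts of reads per Ensembl gene ID that the authors deposited, in 18 columns. Per the labels' protocols, polyadenylated RNA was selected, fragmented, primed with random hexamers and sequenced on an Illumina HiSeq. Per the submitters' processing notes, FastQC 0.11.3, HTSeq 0.6.1 and DESeq2 were used; not given in the sources used here are the aligner, build, annotation and strandedness, so overlapping, antisense and near-identical genes are uncertain. Each column was matched to a library by title, and the 2 runs of UDR 2 and of UDR 3 were summed as 1 sample each. The labels give 16 animals, so p-values measure the spread between animals. CPM used the whole library total and log2(CPM + 1) a pseudocount of 1. Of the reference table's 35057 genes (ARS-UI_Ramb_v3.0), 0 matched an ID, so planned marker lists were void and no sequence is shown.

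Groups were compared with edgeR 4.0.16 in R 4.3.3 (TMM scaling, filterByExpr, robust quasi-likelihood F test, group as the only term). DESeq2 1.42.0, limma 3.58.1 (voom with sample quality weights) and other settings were alternatives. On simulated counts of UD against C over 14148 genes, the test found 6% of 2-fold, 54% of 4-fold, 82% of 8-fold and 80% of 16-fold changes and made 2 false calls. The changed genes were drawn at random from all genes tested. Members had a median SE of 1.18 to 1.21, against 0.41 over all genes tested, so these shares do not give the recovery among members. The members and all lists and measures were chosen with earlier results of these data known. IDs to name were the 6 with the largest criterion, the 4 of highest mean CPM over all 16 libraries, 2 on each side of the threshold, the 4 highest and 2 lowest ratios of the mean in the 4 libraries to the highest of the 12, and the 5 nearest IDs with at least 1000 CPM in C.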

Additional observations from a re-analysis of the deposited data

Results flagged for a closer look

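In C and in UD, the libraries C 1 and UD 2 lay far from the other 3 of their group. C 1 had a member share of 0.852%, a mean log2(CPM + 1) of 4.30 and 200 members over 1 CPM. UD 2 had a share of 1.03% and a mean of 4.65. The choice of members itself put these libraries high, so their distance is part of the criterion and no test of it applies.

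In IA, which the criterion used only through the mean of the 12, single members had 1 library far from the others, by a gap that exceeded Dixon's 95% critical value for 4 samples. IA 2 was low for 3 abundant members on the log2(CPM + 1) scale, at 1.81 for ENSOARG00000011311, 1.76 for ENSOARG00000002821 and 0.62 for ENSOARG00000000900. IA 2 was high for ENSOARG00000006454, at 2.91. IA 4 was high for ENSOARG00000010420, at 0.86, and for ENSOARG00000005291, at 0.082, which is within the level that a count of 0 allows. Chance puts 1 library past this limit in about 1 in 20 groups, and the members share their libraries, so these 6 are no independent observations. Over all measures 29 groups were examined and 11 were flagged. The 11 include the flags of C 1 and UD 2, which the choice of members set. They can therefore not be set against the 1.45 that chance would flag in independent groups.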

How the results depend on the processing

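Under edgeR no setting called a member, and the count was 0 to 0 over the fits that left out 1 library. Limma-voom with sample quality weights called 20 members for UD against C, 13 for UDR against UD and 4 for IA against UD, a smaller share than of all genes (23.8%, 11.6% and 10.2%), and moved the median for IA against C from -0.80 to -0.012 and that for IA against UD from -1.31 to -0.63. DESeq2 called 1 for IA against C, 1 for IA against UD and 7 for IA against UDR, of 5, 3 and 53 genes. The call for IA against C and that for IA against UD were the same member, ENSOARG00000010694. It was at 0 in every IA library, and among C and UD libraries only C 1, at 3.42 CPM, and UD 2, at 10.6 CPM, held it. Both libraries belong to the criterion. The cause of the differences between tools was not tested.

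Without the 4 libraries the median was 0.49 for IA against C, 0.039 for IA against UD and 0.27 for IA against UDR. Leaving out 1 library at a time gave medians of -0.84 (without UD 2) to 2.21 (without C 1) for UD against C and 0.83 to 3.11 (without C 1) for UDR against C. They ran from -1.17 to 0.51 (without C 1) for IA against C and from -1.82 to 0.045 (without UD 2) for IA against UD. They ran from 0.28 to 2.20 for UDR against UD and from -2.63 to -1.75 for IA against UDR.

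Choosing by the mean of the 4 libraries kept 128 of the 200 members, and setting the lowest of the 4 against the highest of the 12 kept 133. Leaving out 1 of the 4 libraries kept 105 (without UDR 3) to 182 (without UD 2). A pseudocount of 5 kept 147, 0.5 kept 185 and TMM-scaled totals kept 189.

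The labels do not say that replicate numbers pair the animals, and the correlations did not meet the criterion for pairing, over 0.1 in every pair. Deviations of same-numbered libraries had a median correlation of -0.01 (24 pairs, from -0.56 to 0.64), against 0.02 for others (72 pairs, from -0.59 to 0.57). The 6 pairs numbered 4 ran from 0.045 to 0.39, but those numbered 1 from -0.56 to 0.15. Of 16 libraries 8 correlated best with their own number, at most a hint from the data and not from the design. It was not set against chance. With the replicate block the medians were 0.08 for UD against C, 1.19 for UDR against C, -0.74 for IA against C, 1.09 for UDR against UD, -1.02 for IA against UD and -2.09 for IA against UDR, with 0 members called. Few counts in the 12 libraries limit fold changes of the low members.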
